A study of Mus musculus with 9 samples.

Results

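The 10 genes described here are those of the G1 cell cycle engine: the D-type cyclins Ccnd1, Ccnd2 and Ccnd3, the kinases Cdk4 and Cdk6, the CIP/KIP inhibitors Cdkn1b and Cdkn1c, and the INK4 inhibitors Cdkn2a, Cdkn2b and Cdkn2c. They were taken by symbol from the platform annotation, and all 10 were measured among 19938 genes. The study hybridized RNA of 2 groups of primary mouse back skin cells from postnatal day 4 to Affymetrix Mouse Gene 1.0 ST arrays. Every independent preparation had its own array. The 4 SKP arrays (replicates 3, 4, 5 and 6) hold spherical colonies of skin-derived precursor cells, grown in culture from dissociated neonatal skin and collected at primary passage. The 5 sorted arrays (replicates 2, 16, 17, 18 and 20) hold uncultured cells that flow sorting took from the skin as Sox2:EGFP-positive and CD34-negative, the mice carrying a green fluorescent reporter of Sox2. For the SKPs no strain is named in the labels. Culture, colony growth and sorting all separate the groups, so their parts in any difference cannot be told apart.

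Cells pass from G1 into S phase when D-type cyclins bind CDK4 or CDK6 and the complexes phosphorylate the retinoblastoma protein RB, which then releases E2F transcription factors. INK4 proteins bind CDK4 and CDK6 and keep D-type cyclins away from them, whereas CIP/KIP proteins bind assembled cyclin-CDK complexes and act most strongly on those of CDK2. In skin, cells of the dermal papilla divide rarely, and INK4 genes are known to rise in many primary cells during culture.

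Values are log2 RMA levels, the output of a standard summary of Affymetrix probe sets, so a difference of 1 is a 2-fold difference. The median over all genes lay between 7.15 and 7.30 on every array, and a mean level of 6.31 bounded the lowest of 3 equal groups of genes. Among the sorted arrays, replicates 2 and 20 formed a pair of their own, scoring -32.7 and -53.3 on principal component 2, which held 15.2% of the variance, where replicates 16, 17 and 18 scored 19.1 to 27.8. The sorted arrays carried the defining papilla genes, with Alpl at 9.29 to 10.93 and Corin at 11.19 to 13.25, and SKPs had them at 6.06 to 6.57 and 6.77 to 7.21. Cd34, which the sort selected against, was at 10.19 on sorted replicate 2, 10.27 on replicate 20 and 7.31 to 7.82 on replicates 16, 17 and 18, with SKPs at 11.14 to 11.62. Each member difference below is therefore also given without these 2 arrays where that changed its call or moved its fold by more than 1.5 times.

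Relative to the sorted cells, SKPs had more RNA of the D-type cyclins, of Cdk4 and of a pair of INK4 inhibitors, and less of the p27 gene Cdkn1b. Of the 10 genes, 6 were higher in SKPs (Ccnd1, Ccnd2, Ccnd3, Cdk4, Cdkn2a and Cdkn2b) and 1 was lower (Cdkn1b) at a limma adjusted p under 0.05. Cdk6, Cdkn1c and Cdkn2c were not called. Over all genes tested 37.0% were called, 20.2% higher and 16.9% lower. The median difference of the 10 genes was 0.81 on the log2 scale, against 0.07 over all genes. In 6 of the 10 genes the groups did not overlap, as in 34.0% of all genes, and 5 were called with at least a 2-fold difference, as were 11.7% of all genes. In bulk samples of this kind a change in the share of expressing cells and a change in RNA per cell cannot be told apart.

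**Figure D1:**
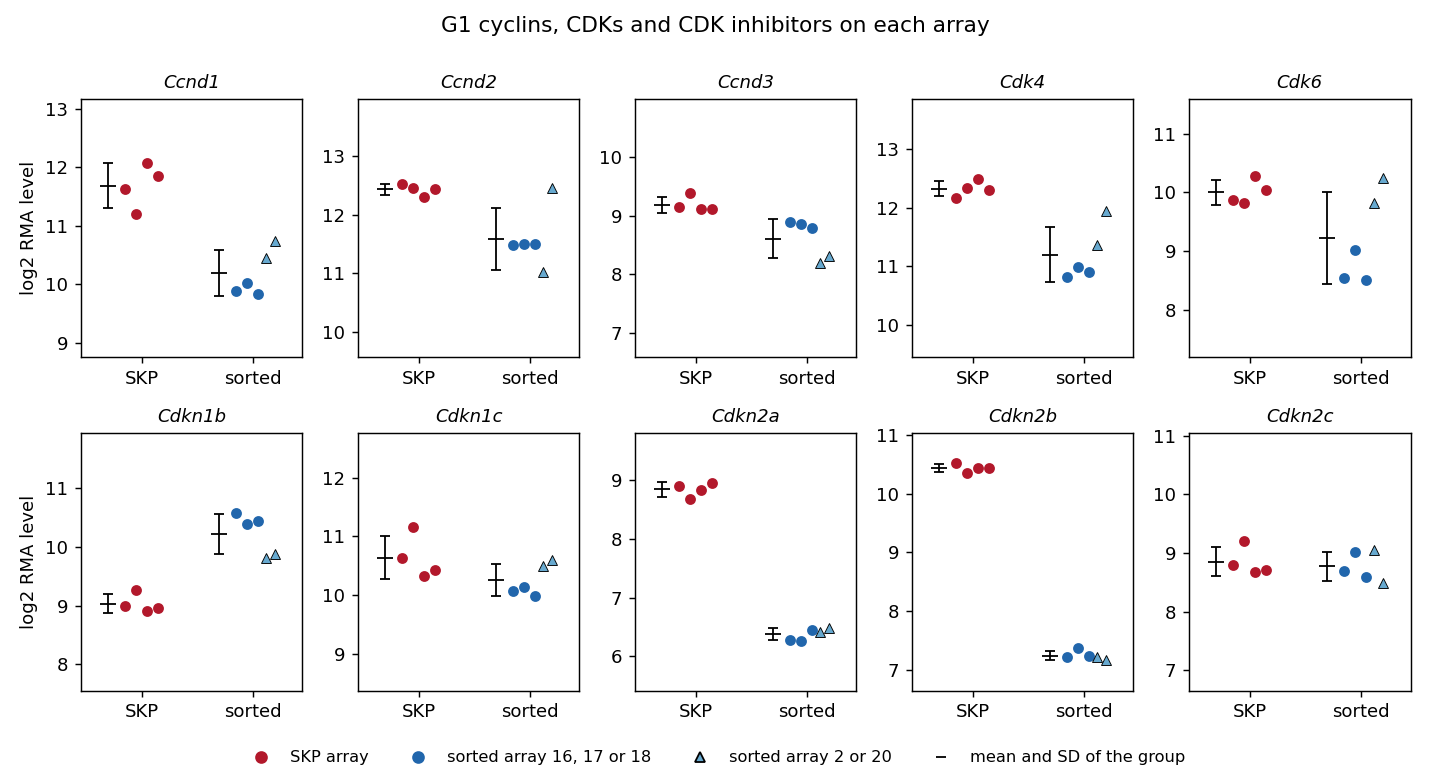
Log2 RMA levels of the 10 genes on each array, with the SKP arrays (4 points) on the left and the sorted arrays (5 points) on the right of each panel. Black bars give the mean and SD of the group, triangles mark sorted replicates 2 and 20, and all panels span the same number of log2 units. Cdkn2a and Cdkn2b show tight and widely separated groups. In Ccnd1, Ccnd3, Cdk4, Cdk6, Cdkn1b and Cdkn1c the triangles lie apart from the other sorted arrays on a shared side. In Ccnd2 they lie on opposite sides of those arrays.

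The INK4 pair Cdkn2a and Cdkn2b showed the largest differences of the 10 genes and, among the sorted arrays, the smallest SDs. Cdkn2a gives rise to 2 unrelated proteins from separate first exons, p16INK4a, which inhibits CDK4 and CDK6, and p19ARF, which stabilizes p53 through MDM2. The annotation of its 1 probe set lists transcripts of both kinds, so the products cannot be told apart here. Cdkn2b encodes p15INK4b, an INK4 inhibitor known as a target of TGF-beta. Since these genes moved together, the 250 bases before each start in RefSeq (GRCm38.p6, all 3 on the minus strand) are shown, with matches to the GC box GGGCGG in capitals. The first Cdkn2a window lies before the upstream first exon (p19ARF), at chr4:89294620-89294869, the other before the downstream first exon (p16INK4a), at chr4:89282193-89282442, and the Cdkn2b window at chr4:89311033-89311282.
Cdkn2a upstream start: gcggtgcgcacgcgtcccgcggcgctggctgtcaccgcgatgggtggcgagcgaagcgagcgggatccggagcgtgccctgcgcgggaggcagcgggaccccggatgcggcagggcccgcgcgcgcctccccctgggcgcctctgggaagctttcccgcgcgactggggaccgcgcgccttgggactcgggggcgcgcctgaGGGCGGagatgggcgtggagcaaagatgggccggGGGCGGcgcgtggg
Cdkn2a downstream start: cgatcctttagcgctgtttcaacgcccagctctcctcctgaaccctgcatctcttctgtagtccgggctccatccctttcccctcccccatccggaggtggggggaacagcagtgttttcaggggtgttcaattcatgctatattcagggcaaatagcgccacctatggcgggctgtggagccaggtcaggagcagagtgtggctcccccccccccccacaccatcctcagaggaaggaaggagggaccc
Cdkn2b start: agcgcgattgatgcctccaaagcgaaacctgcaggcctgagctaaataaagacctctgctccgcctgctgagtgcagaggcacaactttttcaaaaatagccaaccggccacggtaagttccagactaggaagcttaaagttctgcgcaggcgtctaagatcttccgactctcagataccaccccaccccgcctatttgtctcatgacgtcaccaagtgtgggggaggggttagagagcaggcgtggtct
The p19ARF window holds 2 GC boxes and is 78.4% G and C, against 60.0% in the p16INK4a window and 53.6% in that of Cdkn2b, neither of which holds a GC box. Over 32851 RefSeq windows of this length 32.7% hold a GC box on either strand. None of the 3 windows matches the E2F letters TTTCGCGC or TTTGGCGC (0.654% of all windows), the E-box CACGTG (6.02%), the AP-1 letters TGANTCA (6.75%), CCAAT (33.8%) or TATAAA (12.4%), each searched on both strands. These letters describe the windows only, and other forms of the sites were not searched.

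Cdkn2b was at 10.52, 10.35, 10.44 and 10.44 on SKP replicates 3, 4, 5 and 6, and at 7.21, 7.21, 7.37, 7.24 and 7.17 on sorted replicates 2, 16, 17, 18 and 20. The groups were 2.98 log2 units apart at their nearest arrays, and no array of either group stood out. The mean was 10.44 ± 0.07 in SKPs (SD, n = 4) and 7.24 ± 0.08 in the sorted cells (n = 5). Cdkn2b was thus 9.19-fold higher in SKPs (95% confidence interval 8.21 to 10.3, limma adjusted p = 5.36e-09), and 0.978% of genes had a difference at least as large. Cdkn2a was at 8.90, 8.68, 8.84 and 8.96 on the SKP arrays in the same order and at 6.42, 6.27, 6.27, 6.45 and 6.49 on the sorted arrays. The groups lay far apart, and the sorted values stood on both sides of the 6.31 that bounds the lowest genes. The mean was 8.84 ± 0.12 in SKPs (SD, n = 4) and 6.38 ± 0.10 in the sorted cells (n = 5), a 5.52-fold difference (95% confidence interval 4.83 to 6.31, limma adjusted p = 4.01e-08). The folds moved little without sorted replicates 2 and 20, to 5.72 for Cdkn2a and 8.97 for Cdkn2b.

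The remaining INK4 gene, Cdkn2c, was not called. It encodes p18INK4c, and it was at 8.79, 9.21, 8.68 and 8.72 on the SKP arrays and at 9.05, 8.70, 9.02, 8.58 and 8.49 on the sorted arrays. The groups overlapped almost fully. The log2 difference was 0.08 (95% confidence interval -0.26 to 0.42, limma adjusted p = 0.717), an interval that holds no change as large as 1.5-fold. Without SKP replicate 4 the difference was -0.04 (limma adjusted p = 0.864). Within single arrays, Cdkn2b minus Cdkn2c ran from 1.14 to 1.76 in SKPs and from -1.84 to -1.33 in the sorted cells, and Cdkn2a minus Cdkn2c from -0.53 to 0.24 against -2.76 to -2.01. In these arrays Cdkn2c thus stood apart from the other INK4 genes, with no overlap of the groups. Cdkn2a minus Cdkn2b also separated the groups, at -1.67 to -1.48 in SKPs and -1.10 to -0.68 in the sorted cells. These within-array differences were not tested.

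Cdkn2a and Cdkn2b are neighbours, and Mtap, a methionine salvage enzyme gene, precedes them in the RefSeq order of protein-coding genes. Mtap was at 9.15 to 9.59 in SKPs and 7.64 to 8.68 in the sorted cells, with no overlap. It was 2.56-fold higher in SKPs (limma adjusted p = 5.32e-04). The other measured neighbours were at low levels in both groups. Ifna4 and Ifne before Mtap, and Dmrta1, Zfp352, Elavl2 and Izumo3 after Cdkn2b, had levels of 3.96 to 5.98 and log2 differences of 0.04 to 0.25, and none was called.

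**Figure D2:**
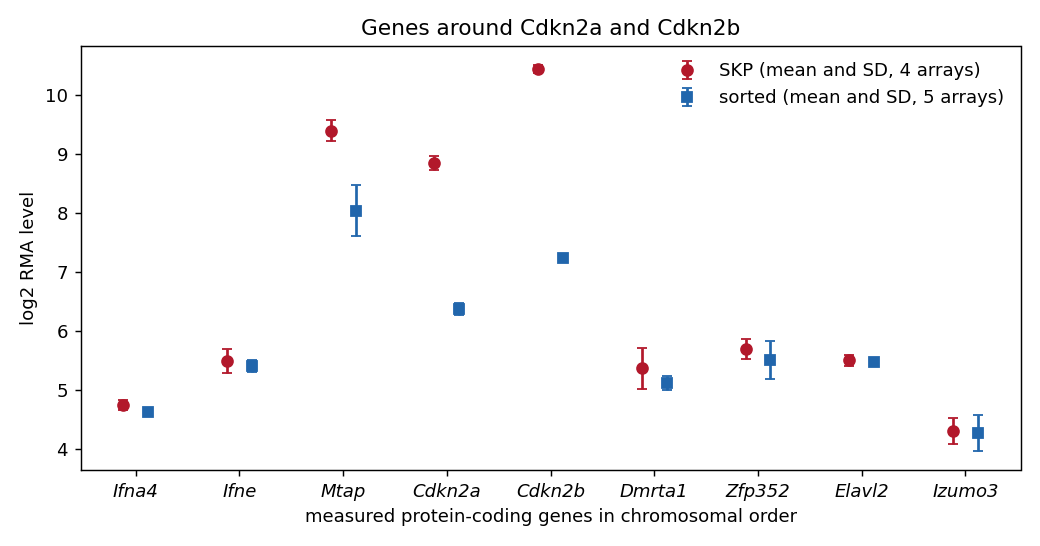
Mean log2 RMA level, with the SD, of the measured protein-coding genes around Cdkn2a and Cdkn2b in chromosomal order, for the 4 SKP and 5 sorted arrays. Only Mtap, Cdkn2a and Cdkn2b differ between the groups among the 9 genes drawn, and the rest lie at low levels in both.

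The CIP/KIP inhibitors differed from each other as well. Cdkn1b encodes p27KIP1, an inhibitor typical of resting cells. It was at 8.997, 9.27, 8.91 and 8.95 on SKP replicates 3, 4, 5 and 6 and at 9.81, 10.58, 10.39, 10.44 and 9.88 on sorted replicates 2, 16, 17, 18 and 20. Every SKP array lay below every sorted array, and replicates 2 and 20 were the sorted arrays nearest to SKPs. Cdkn1b was 2.28-fold lower in SKPs (limma adjusted p = 3.79e-04), with means of 9.03 ± 0.16 in the 4 SKP arrays and 10.22 ± 0.35 in the 5 sorted arrays (SD), and was the one member that fell. A second Cdkn1b probe set, not used in the main comparison, gave a log2 difference of -1.52 (limma adjusted p = 0.0019). Cdkn1c, an imprinted gene for p57KIP2, was at 10.63, 11.16, 10.33 and 10.43 on the SKP arrays and at 10.49, 10.07, 10.13, 9.98 and 10.61 on the sorted arrays. SKP replicate 4 was the highest, and replicates 2 and 20 lay among the SKP values. The log2 difference was 0.38 (95% confidence interval -0.04 to 0.80, limma adjusted p = 0.146), so Cdkn1c was not called. Without sorted replicates 2 and 20 it was called 1.49-fold higher (limma adjusted p = 0.0286), whereas without SKP replicate 4 the log2 difference was 0.21 (limma adjusted p = 0.361). Cdkn1b minus Cdkn1c ran from -1.89 to -1.42 within SKP arrays and from -0.72 to 0.51 within sorted arrays, with no overlap.

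For Cdkn1b, the gene that fell, the 250 bases before the start are shown (RefSeq, GRCm38.p6, plus strand, chr6:134920151-134920400), with its 2 CCAAT matches and 1 GC box in capitals.
Cdkn1b start: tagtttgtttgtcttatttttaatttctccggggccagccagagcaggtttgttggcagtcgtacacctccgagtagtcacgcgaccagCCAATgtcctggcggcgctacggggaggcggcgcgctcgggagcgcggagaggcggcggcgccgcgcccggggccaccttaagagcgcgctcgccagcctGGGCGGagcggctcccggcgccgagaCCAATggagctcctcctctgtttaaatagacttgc
At least 1 CCAAT match is held by 33.8% of all windows and at least 1 GC box by 32.7%. The share with 2 CCAAT matches was not counted.

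All 3 D-type cyclins were higher in SKPs. They are the regulatory subunits that link growth signals to CDK4 and CDK6. Ccnd1 was at 11.62, 11.19, 12.08 and 11.85 on the SKP arrays and at 10.45, 9.89, 10.02, 9.84 and 10.74 on the sorted arrays. The groups did not overlap, although sorted replicates 2 and 20 were the nearest to SKPs. Ccnd1 was 2.82-fold higher, at 11.69 ± 0.38 (SD, n = 4) against 10.19 ± 0.39 (n = 5, limma adjusted p = 5.09e-04).

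Ccnd2 was at 12.52, 12.46, 12.30 and 12.43 on the SKP arrays and at 11.02, 11.48, 11.49, 11.49 and 12.45 on the sorted arrays. Sorted replicate 20 lay among the SKP values, replicate 2 was the lowest array, and replicates 16, 17 and 18 were almost equal. Here the arrays that stood apart did not share a side. Ccnd2 was 1.79-fold higher in SKPs (12.43 ± 0.09 against 11.59 ± 0.52, limma adjusted p = 0.0169).

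Ccnd3 was at 9.14, 9.38, 9.11 and 9.11 on the SKP arrays and at 8.19, 8.90, 8.86, 8.79 and 8.31 on the sorted arrays. Replicates 2 and 20 were its lowest arrays, the reverse of Ccnd1. Ccnd3 was 1.49-fold higher in SKPs (9.19 ± 0.13 against 8.61 ± 0.33, limma adjusted p = 0.0174), and the call was lost without SKP replicate 4 (log2 difference 0.51, limma adjusted p = 0.0546). Within arrays, each of the 3 differences between D-type cyclins overlapped between the groups. Ccnd1 minus Ccnd2, for example, ran from -1.27 to -0.23 in SKPs and from -1.71 to -0.57 in the sorted cells. For Ccnd1 minus Ccnd2 the overlap came from sorted replicate 2 alone (-0.57), as replicate 20 lay below the SKP range (-1.71). For Ccnd1 minus Ccnd3 both replicates lay within the SKP range (2.25 and 2.43). For Ccnd2 minus Ccnd3 replicate 2 lay below it (2.82) and replicate 20 above it (4.13). On replicates 16, 17 and 18 every one of the 3 differences lay below the SKP range, with Ccnd1 minus Ccnd2 at -1.59, -1.47 and -1.66. There Ccnd1 minus Ccnd3 was 0.99 to 1.17, against 1.81 to 2.97 in SKPs, and Ccnd2 minus Ccnd3 was 2.58 to 2.71, against 3.08 to 3.38. These differences were not tested.

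Of the 2 kinases, Cdk4 was called and Cdk6 was not. Both are catalytic partners of the D-type cyclins. Cdk4 was at 12.17, 12.34, 12.49 and 12.30 on the SKP arrays and at 11.36, 10.81, 10.99, 10.90 and 11.95 on the sorted arrays. The groups did not overlap, and sorted replicate 20 came within 0.23 of the lowest SKP array. Cdk4 was 2.18-fold higher in SKPs, at 12.33 ± 0.13 (SD, n = 4) against 11.20 ± 0.47 (n = 5, limma adjusted p = 0.00209).

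Cdk6 was at 9.86, 9.81, 10.28 and 10.04 on the SKP arrays and at 9.81, 8.54, 9.02, 8.50 and 10.25 on the sorted arrays. Sorted replicates 2 and 20 lay at SKP levels and the other 3 below all SKP arrays. The log2 difference was 0.78 (95% confidence interval 0.00 to 1.55, limma adjusted p = 0.110). Without replicate 20 it was 1.03 (limma adjusted p = 0.0129), and without both replicates Cdk6 was 2.48-fold higher in SKPs (limma adjusted p = 1.36e-04). Cdk4 minus Cdk6 overlapped between the groups, at 2.21 to 2.53 in SKPs and 1.54 to 2.40 in the sorted cells, so the call for one kinase and not the other does not show that they changed unequally.

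The Cdk4 window is shown because Myc, whose protein binds CACGTG, is among the regulators described below (RefSeq, GRCm38.p6, plus strand, chr10:127063285-127063534). Its 4 CACGTG matches and 1 GC box are in capitals.
Cdk4 start: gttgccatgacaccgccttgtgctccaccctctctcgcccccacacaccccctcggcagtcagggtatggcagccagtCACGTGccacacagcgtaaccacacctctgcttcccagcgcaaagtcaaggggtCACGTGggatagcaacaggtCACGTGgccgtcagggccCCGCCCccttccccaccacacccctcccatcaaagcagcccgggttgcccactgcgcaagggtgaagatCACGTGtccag
At least 1 CACGTG is held by 6.02% of all windows, and the share with 4 was not counted. The window of Cdk6, which was not called, also holds 1 CACGTG. Windows for 7 of the 10 genes were matched, and the E2F letters TTTCGCGC and TTTGGCGC were in none of their 10 windows. Other forms of the E2F site were not searched, so their absence is not shown.

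**Figure D3:**
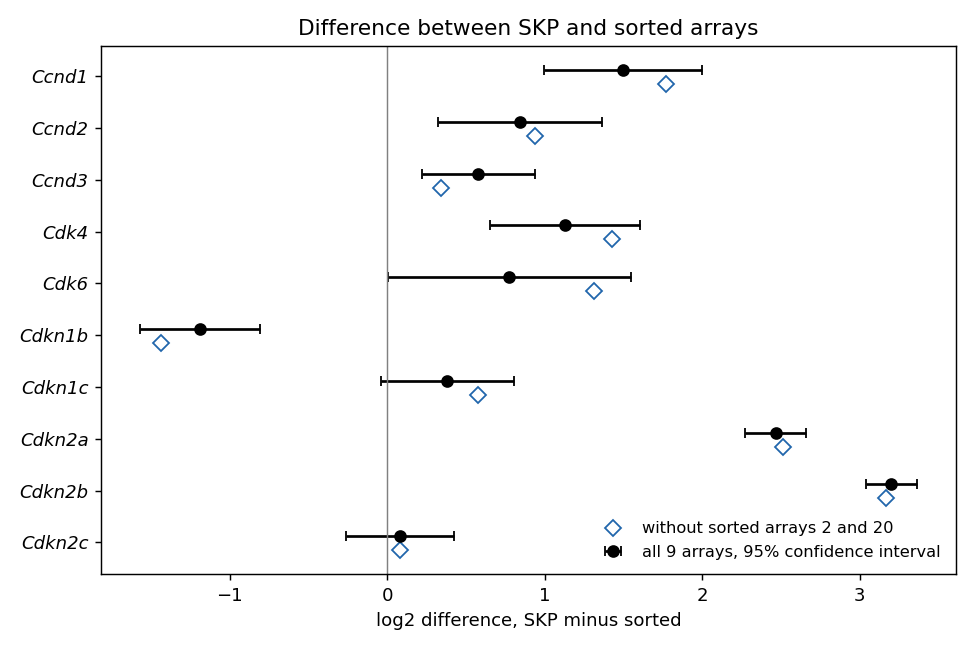
Log2 difference of each gene, SKP minus sorted cells, from all 9 arrays (filled points, with 95% confidence intervals) and without sorted replicates 2 and 20 (open diamonds). Cdkn2a and Cdkn2b lie far above 0 under both, Cdkn1b is the one gene below 0, and the Cdk6 difference moves from 0.78 to 1.31.

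Sorted replicates 2 and 20 lay outside the range of the other 3 sorted arrays, on 1 side, in 7 of the 10 genes, above it in Ccnd1, Cdk4, Cdk6 and Cdkn1c and below it in Ccnd3, Cdkn1b and Cdkn2b. The same held for 48.7% of all genes. Without these arrays 8 of the 10 genes were higher in SKPs and 1 lower, against 46.5% of all genes called. Only Cdkn2c was then not called. Markers of several other cell types moved with this division. The mean level of 8 fibroblast markers was 12.03 to 12.12 in SKPs, 11.83 on replicate 2, 11.86 on replicate 20 and 10.73 to 10.78 on replicates 16, 17 and 18. These markers include Cd34, given above, so this mean is not separate from it. The mean of 8 keratinocyte markers was 10.12 and 11.64, against 9.61 to 9.71 and 6.62 to 6.95, and that of 8 papilla markers 10.96 and 10.48, against 12.17 to 12.36 and 6.07 to 6.36. The mean of 7 hair shaft and matrix markers went the other way from that of keratinocytes, at 7.54 on replicate 2, 7.16 on replicate 20, 9.73 to 9.89 on replicates 16, 17 and 18 and 5.75 to 6.10 in SKPs. The mean of 6 endothelial markers was 7.57 on replicate 2, 7.95 on replicate 20, 6.56 to 6.69 on the others of the sort and 6.39 to 6.76 in SKPs. The mean of 8 myeloid markers was 7.22 to 8.81 in SKPs and 5.95 to 6.37 in the sorted cells, with 7 of the 8 called higher. The part of these cells in the member differences was not tested.

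Levels of genes that act after the G1 engine varied widely among the sorted arrays. In a list of S phase genes that E2F factors control, 3 of 19 measured genes were higher in SKPs and 0 lower (limma adjusted p under 0.05), with a median log2 difference of 0.76. The share called was 15.8%, below the 37.0% of all genes. Rfc4, a subunit of the clamp loader of DNA replication, was 2.27-fold higher (adjusted p = 0.0281), and Cdc6, which loads the replicative helicase, 1.93-fold higher (adjusted p = 0.0245). The list mean was 9.02 to 9.41 in SKPs, 9.04 on sorted replicate 2, 9.54 on sorted replicate 20, and 7.81 to 7.97 on sorted replicates 16, 17 and 18. When replicates 2 and 20 were left out, 19 of 19 genes were higher, without replicate 20 alone 17, without replicate 2 alone 6 and without SKP replicate 5 alone 0. It was 1 without SKP replicate 4 or 6 or without sorted replicate 16 or 18.

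Genes of G2 and mitosis showed a like pattern. Of 19 measured, the higher ones numbered 2 and the lower ones 0 (median log2 difference 0.61), namely the mitotic kinases Plk1 (2.24-fold, limma adjusted p = 0.0222) and Aurka (1.97-fold, adjusted p = 0.0307). That was 10.5% called, below the 37.0% of all genes. Mki67, the proliferation marker Ki-67, had a log2 difference of -0.47 (adjusted p = 0.355), or 0.11 without sorted replicates 2 and 20, and was singled out after its values were seen. The list mean was 8.83 to 9.22 in SKPs, 9.46 on sorted replicate 2, 9.29 on sorted replicate 20, and 7.71 to 8.12 on sorted replicates 16, 17 and 18. Without both arrays 18 of 19 genes were higher, without replicate 2 alone 9 and without replicate 20 alone 8, whereas leaving out SKP replicate 5 or 6 or sorted replicate 17 left 0. The count was 1 without SKP replicate 4 or without sorted replicate 16 or 18. Cdk4, Cdk6, Ccnd1 and the inhibitor gene Cdkn1c also had replicates 2 and 20 above the other sorted arrays. Ccnd3, Cdkn1b and Cdkn2b had them below. The part of dividing cells in these differences was not tested.

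**Figure D4:**
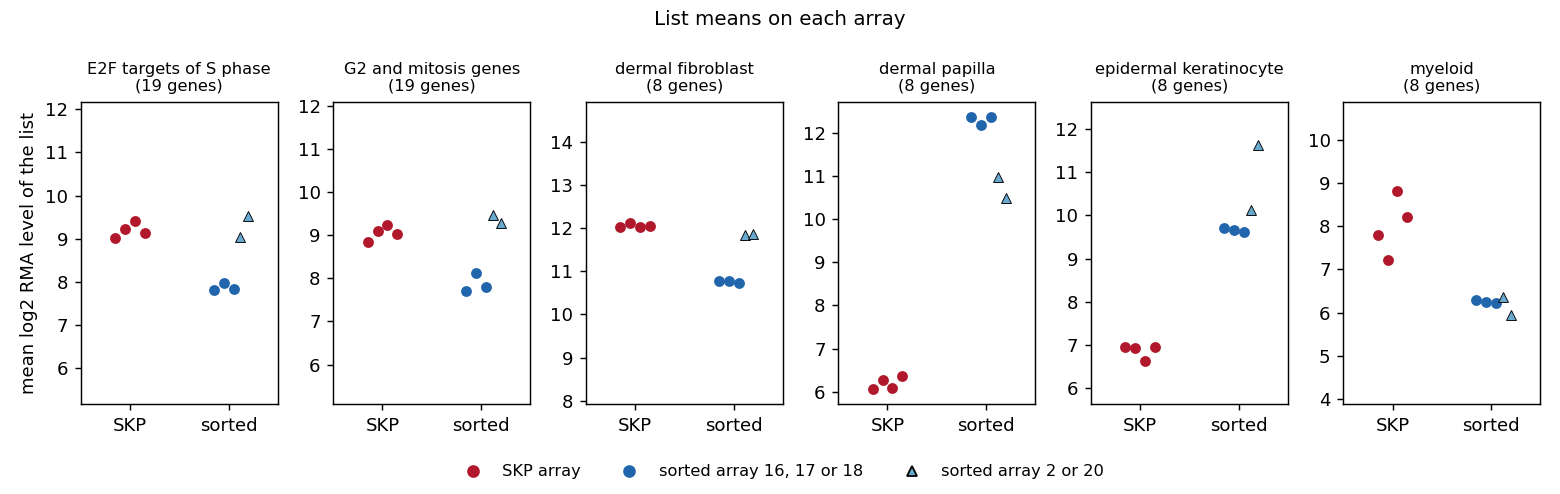
Mean log2 RMA level of 6 gene lists on each array, for the 4 SKP and 5 sorted arrays, with sorted replicates 2 and 20 as triangles. In the S phase and mitosis lists the triangles lie at 9.04 to 9.54, level with or above the SKP arrays, and the other 3 sorted arrays lie between 7.71 and 8.12.

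The partners next to the G1 engine were mixed. Of 9 measured E-type cyclins, CDK2 and related genes, 4 were higher and 0 lower, led by Ccne1 (2.55-fold, limma adjusted p = 0.00482) and Ccne2 (2.31-fold, adjusted p = 0.0161), the cyclins that bind CDK2. Ccne1 did not overlap between the groups and Ccne2 did. In this list 44.4% were called, against 37.0% of all genes. Cdkn1a, the p21 gene, is not analysed here.

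Of 13 genes of the RB and E2F families, 5 were higher and 3 lower. The median log2 difference was 0.11, and 61.5% were called, against 37.0% of all genes. Rb1, which encodes RB itself, was at 7.64 to 7.94 in SKPs and 9.12 to 10.14 in the sorted cells, and was 3.90-fold lower in SKPs (limma adjusted p = 5.61e-05). Tfdp2, a dimer partner of E2F proteins, was 2.17-fold lower (adjusted p = 2.46e-05). The activating E2F genes E2f1 (2.48-fold, adjusted p = 0.00207) and E2f3 (2.29-fold, adjusted p = 3.60e-06) were higher. Leaving out sorted replicates 2 and 20 gave 8 higher and 3 lower genes.

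Genes for the turnover of p27 protein, which is destroyed after tagging by the SKP2 ubiquitin ligase, included 4 of 8 that were higher and 0 lower. This share was above the 37.0% of all genes that were called. Kpna2, a nuclear import factor, was 3.21-fold higher (limma adjusted p = 0.00362) and Cks1b, a cofactor of SKP2, higher by 1.14 log2 units (adjusted p = 8.94e-04). The count was 2 without SKP replicate 4 or 5 and without sorted replicate 16 or 17. These are RNA levels, and p27 protein was not measured.

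Of 14 measured regulators and neighbours of the Ink4 locus, 2 were higher, 5 lower and 7 not called. That was a larger share called than the 37.0% of all genes. Genes that raise Cdkn2a and Cdkn2b are not parted from genes that lower them or from neighbours, so the counts imply no direction. Hmga2, a chromatin protein known to hold down Ink4a and Arf in young stem cells, was at 10.80 to 11.32 in SKPs and at 6.92 to 7.54 in the sorted cells. It was 16.6-fold higher in SKPs (limma adjusted p = 7.92e-08). Mtap was the other gene that was higher. Kdm6a, a demethylase of the Polycomb mark on histone H3, was 2.73-fold lower (adjusted p = 1.81e-05), and Cbx7, a Polycomb subunit, 1.99-fold lower (adjusted p = 0.0220). The lower count was 3 without SKP replicate 4 or sorted replicate 17, and 4 genes were higher and 4 lower without sorted replicates 2 and 20.

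Listed regulators that act upstream of D-type cyclins were mostly lower. The list does not part genes that raise these cyclins from genes that lower them, so its counts imply no direction for the cyclins. Of 14 measured, 10 were lower and 0 higher, or 71.4% called against 37.0% of all genes, and the median log2 difference was -1.22. Fos, a subunit of AP-1, was 22.5-fold lower (limma adjusted p = 4.40e-08) and Lef1, a nuclear effector of Wnt signals, 8.51-fold lower (adjusted p = 1.65e-04). Myc had a log2 difference of -0.19 (adjusted p = 0.597), or 0.13 without sorted replicates 2 and 20, and was called in neither. It was singled out after its values were seen. Without sorted replicates 2 and 20, 11 were lower and 1 higher, and the Lef1 fold was 13.4.

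**Figure D5:**
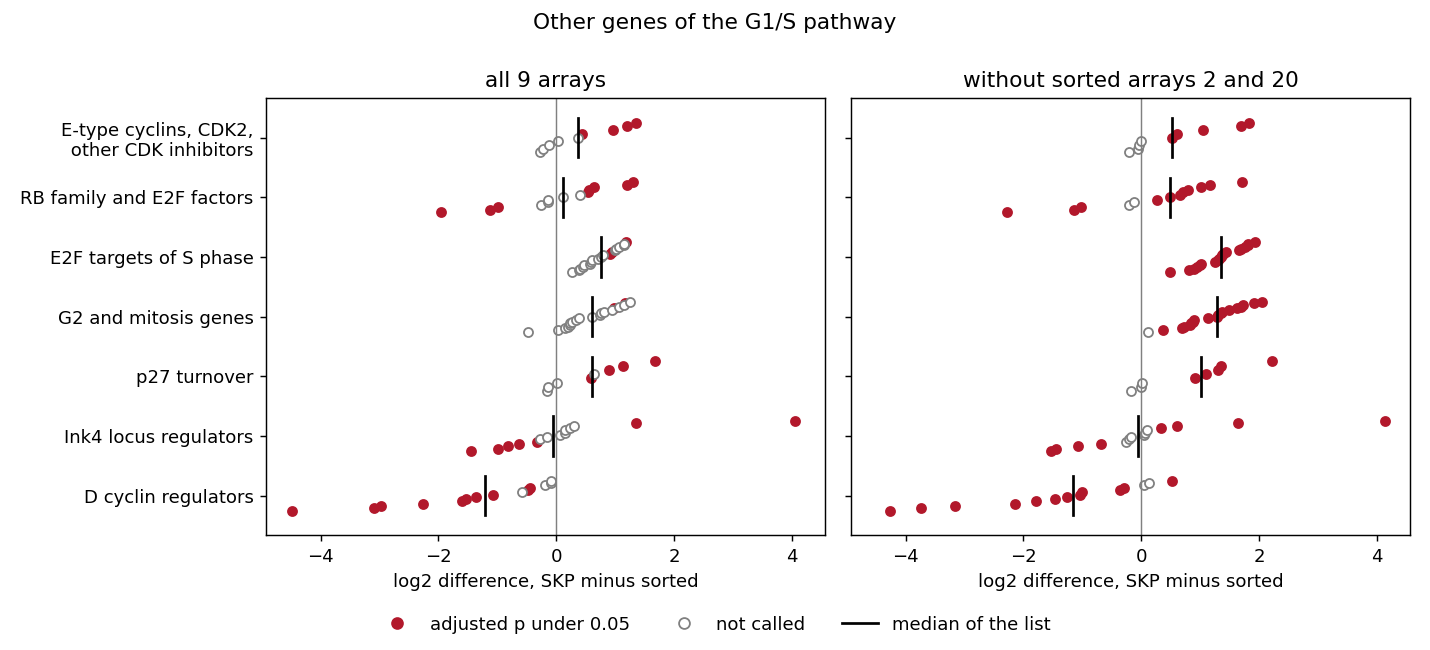
Log2 differences, SKP minus sorted cells, of the 96 measured genes in 7 lists of the G1/S pathway, from all 9 arrays (left) and without sorted replicates 2 and 20 (right). Filled points passed an adjusted p under 0.05, open points did not, and bars give the list median. The S phase and mitosis lists move from 3 and 2 called genes to 19 and 18, whereas regulators of D-type cyclins lie mostly below 0 in both panels.

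The genes most like the 3 members with the largest differences were found by the root mean square distance between profiles over the 9 arrays, each centred on its own mean, among 12823 named genes. Nearest to Cdkn2b were Xaf1 (distance 0.12 log2 units), Gbp3 (0.13) and Herc6 (0.14). Nearest to Cdkn2a were Zmat3 (0.10), Oasl1 (0.11) and Ccng1 (0.15). Nearest to Ccnd1 were Msmo1 (0.11), Pkm (0.11) and Nsdhl (0.13). The measure follows the size of the difference between the groups first, so it describes likeness in these arrays only.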

How the data were processed

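The authors deposited 1 table of log2 levels, 1 value per probe set and array. RMA, limma and Affymetrix Expression Console are listed in the submitters' processing notes, and versions, settings and the genome build are not given in the sources used here. RMA adjusts background, normalizes quantiles between arrays and summarizes probes. No detection calls were used, so it is not known whether a low value is above background. The number of arrays limits the precision.

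Of 35556 probe sets, 21789 had exactly 1 symbol and gave 19938 genes. For 999 genes with several probe sets, Cdkn1b among them, the probe set of highest mean level was used. The 10 members passed no filter on low values, since none was applied, and all had a mean level above that of the lowest of 3 equal groups of genes. SKP minus sorted cells was tested with limma 3.58.1 in R 4.3.3 (lmFit and eBayes, two-sided, Benjamini-Hochberg over all genes, called at an adjusted p under 0.05). Confidence intervals are the moderated 95% intervals of that fit. The design text calls the preparations independent. Lists were described by counts and medians, with no set test. Of 100 genes in the 7 pathway lists 96 were measured. The members, lists and left-out arrays were chosen with earlier results of these data known. The rule for names took every member, up to 2 called genes at each end of a pathway list, and the 3 nearest profiles of the 3 members with the largest differences. Promoter windows came from RefSeq tables of GRCm38.p6. No protein sequences were used here. On simulated data for all 19938 genes, with 50 genes changed at each of 4 sizes, the calculation recovered 52% at log2 0.585, 80% at log2 1, 96% at log2 2 and 100% at log2 4, with 6 unchanged genes called. The simulated noise was independent between genes, and far fewer genes changed than were called in the real data. These rates therefore check the calculation and do not carry over to the real comparison. Alternatives were quantile normalization, median centring, leaving out the lowest of 3 equal groups of genes, a mean over probe sets, every probe set on its own, weighting of arrays, a robust eBayes fit with a trend, an adjusted p under 0.01, and leaving out each array in turn or sorted replicates 2 and 20 together. Tables and figures were made in Python 3.11.15 (matplotlib 3.10.9).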

Additional observations from a re-analysis of the deposited data

Results flagged for a closer look

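Ccnd3 was at 9.38 on SKP replicate 4, against 9.11 to 9.14 on the other 3 SKP arrays, a gap of 0.87 of the range of the group. This was the 1 group with an array apart among the 20 tested (10 genes in 2 groups), by Dixon's criterion, under which chance gives about 1 in 20. Without that array the Ccnd3 call was lost.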

How the results depend on the processing

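Ccnd1, Cdk4, Cdkn1b, Cdkn2a and Cdkn2b kept their direction and their call under every alternative that was run. The log2 difference ran from 1.37 to 1.77 in Ccnd1, 1.03 to 1.43 in Cdk4, -1.52 to -1.10 in Cdkn1b, 2.43 to 2.56 in Cdkn2a and 3.17 to 3.27 in Cdkn2b. At an adjusted p under 0.01, Ccnd2 (0.84) and Ccnd3 (0.58) lost their calls, S phase and mitosis genes fell to 0 and 0 higher, p27 turnover to 2 higher and Ink4 regulators to 3 lower. With array weights Cdk6 (1.20) and Cdkn1c (0.49) were called, and without sorted replicates 2 and 20 also (1.31 and 0.58). Array weights gave 6145 genes higher over all genes against 4020, and 19 S phase, 17 mitosis and 4 Ink4 regulator genes higher. They also gave 1 p27 turnover gene lower and 1 lower in the list of E-type cyclins, CDK2 and related genes. Without both arrays 8 RB and E2F, 19 S phase, 18 mitosis, 4 Ink4 and 1 D cyclin regulator genes were higher. Median centring and leaving out the lowest genes each gave 5 S phase genes higher. Quantile normalization gave 1 gene lower in the list of E-type cyclins, CDK2 and related genes. Leaving out single arrays, the difference ran from 0.47 to 0.65 in Ccnd3, 0.59 to 1.03 in Cdk6, 0.21 to 0.48 in Cdkn1c and -0.039 to 0.15 in Cdkn2c, which turned negative without SKP replicate 4. The counts ran from 0 to 17 for S phase higher, 0 to 9 for mitosis higher and 2 to 5 for p27 turnover higher. They ran from 3 to 5 for Ink4 regulators lower and 0 to 1 for E-type cyclins, CDK2 and related genes lower. The cause of these changes was not tested. No paired analysis was possible because the groups share no replicate numbers. The 4 and 5 arrays limit the precision.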

Other observations

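Another 30 measured cyclin and CDK genes, taken by symbol after the data were seen, divided evenly, with 9 higher and 9 lower in SKPs (limma adjusted p under 0.05) and a median log2 difference of -0.01. Of these genes 60.0% were called, against 37.0% of all genes. Ccng1, a cyclin known as a p53 target, was at 12.31 to 12.57 in SKPs and 9.63 to 10.08 in the sorted cells. It was 6.30-fold higher (limma adjusted p = 1.03e-07). Its place among the genes nearest to Cdkn2a comes from the same arrays and is not separate from this difference. Ccnf, a subunit of a ubiquitin ligase, was 2.44-fold higher (adjusted p = 0.00869). Cdk19, a Mediator kinase, was 2.66-fold lower (adjusted p = 3.82e-06) and Ccnl1, a cyclin linked to splicing, 2.22-fold lower (adjusted p = 3.17e-05). Without sorted replicates 2 and 20, 10 were higher and 9 lower.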
